A study of Mus musculus with 6 samples.

Results

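The proteasome subunit genes were followed in mouse bone marrow by microarray. Members were all array probes whose sequence record or gene number belonged to a mouse gene called Psma, Psmb, Psmc, Psmd or Psme followed by a number, which gave 39 probes for 39 genes among the 19801 gene probes of the array, of which 14632 could be named for 13831 genes. The reference held 43 genes with such names, and no probe could be named for Psmc2, Psme4, Psmd11 or Psmb11. The immunoproteasome was taken as Psmb8, Psmb9, Psmb10, Psme1 and Psme2 (5 probes), and the remaining 34 probes were read as the other subunits.

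The proteasome is the protease that breaks down ubiquitin-tagged proteins in the cytosol and nucleus. Its core particle is built of rings of alpha (Psma) and beta (Psmb) subunits, and the beta rings carry the active sites. A regulatory particle of ATPases (Psmc) and non-ATPase subunits (Psmd) binds the tagged protein, unfolds it and feeds it into the core. In blood cells and under interferon gamma, the catalytic subunits Psmb5, Psmb6 and Psmb7 are replaced by Psmb8, Psmb9 and Psmb10, and the activator of Psme1 and Psme2 can cap the core. This form, the immunoproteasome, is known for cutting peptides that are displayed on MHC class I.

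Female mice of 6 to 10 weeks were studied in 3 groups, with 2 arrays each. Their strain is C57BL/6J in the labels, and the methods give the irradiated recipients as C57BL/6J-CD45.1. BM was marrow of unirradiated, unmanipulated mice, HSC was marrow of mice given 9.5 Gy and 1000000 bone marrow cells, and MSC was marrow of mice given 9.5 Gy and 1000000 mesenchymal stroma cells. Each array held RNA pooled from 2 mice in BM and HSC and from 3 mice in MSC. The donor mesenchymal cells were a bulk culture from male marrow, expanded and retrovirally labelled with eGFP, and per the methods both irradiated groups were sampled on day 21, while the deposited design description states 7 months. The mice of HSC and MSC were irradiated and those of BM were not. MSC and HSC therefore differ in the graft, while MSC against BM and HSC against BM carry irradiation and graft together. Per the methods, the donor animals were male C57BL/6J mice. The paper found no lasting donor cells after mesenchymal cell grafts and proposes that host cells surviving irradiation restored the blood. HSC marrow can hold donor cells that were not irradiated with the mice. MSC against HSC may thus also compare irradiated host cells with grafted cells, and the share of each was not measured on these arrays.

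All arrays were read in 1 colour and values are log2 intensities after background correction and quantile normalization. Between 11072 and 12510 probes were above background per array. Of the 39 proteasome probes, 37 were above background on all 6 arrays and none was saturated, and their spots were 35.5 times their local background in the median. The exceptions were Psma8 and Psme1. Psma8, the alpha subunit known from testis, was the dimmest member and not above background in HSC replicate 1. The spot of Psme1 in MSC replicate 1 was flagged as contaminated and was left out. Most B cell markers fell in MSC, with 5 of 9 probes called lower against HSC and 5 of 9 against BM. Of all tested probes 0.403% and 0.278% were called lower. The summed intensities of the B cell markers over 7 probes were 4489 to 5942 in MSC, 20367 to 21694 in BM and 24165 to 25604 in HSC. Cd79a differed by only -0.02 ± 0.26 from HSC and -0.19 ± 0.26 from BM, with overlapping arrays. Pax5 differed by -0.33 ± 0.24 and -0.08 ± 0.24. Erythroid markers had summed intensities over 6 probes of 43549 to 50045 in MSC and 29620 to 41186 on the other arrays, with median log2 differences of 0.59 from HSC and 0.68 from BM and 0 probes called. The part of these shifts in the proteasome values was not tested. Marrow is a mixture, so fewer cells of a type and less RNA per cell cannot be told apart in any value below. MSC replicate 2 stood apart from the other 5 arrays in T and NK cell markers, with a summed intensity of 41913 over 8 probes against 9166 to 11727, and in stroma markers, with 16104 over 8 probes against 3861 to 7590. Its sum was also the highest for monocyte, macrophage and dendritic cell markers, at 125022 over 10 probes against 79967 to 104388. For neutrophil markers it was the lowest, at 202450 over 8 probes against 240197 to 255581.

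With 2 arrays per group, none of the 39 proteasome probes passed an adjusted p of 0.05 in limma in any comparison. For MSC against HSC, 0 of 39 were called where 0.48% of all 11660 tested probes were (0.0772% higher and 0.403% lower). Without adjustment 10 of 39 reached p of 0.05, all of them higher in MSC, where 7.01% of tested probes did so in that direction, 9.91% in the other and 16.9% in either. The methods' t-test gave 4 of 38 unadjusted (Psmb9, Psmc1, Psmd4 and Psme3) and 0 after Benjamini-Hochberg adjustment, where 11.3% of all probes passed it unadjusted, so that 4 of 38 was close to the share of all probes. For MSC against BM, 0 of 39 were called (0.43% of 11861 tested probes, 0.152% higher and 0.278% lower), and 7 of 39 were higher at an unadjusted p of 0.05 (5.39% of tested probes, against 7.02% lower and 12.4% in either direction), with 2 of 38 by the methods' t-test (7.91% of all probes). For HSC against BM, 0 of 39 were called (0.0359% of 11153 tested probes, 0.00897% higher and 0.0269% lower), 0 of 39 reached an unadjusted p of 0.05 in limma (5.37% of tested probes, 3.03% higher and 2.34% lower), and the methods' t-test gave 1 of 39, Psmb3 (6.17% of all probes). The differences below are therefore given with their standard errors (SE) as measured values, and none of them is a called change. The limma p-values rest on the spread between the 2 pools of mice of each group, shared over the 3 groups and moderated over all fitted probes.

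The members nevertheless did not lie evenly around 0. In MSC against HSC, 33 of 39 probes had a mean log2 difference above 0, where 51.5% of all tested probes did, and the median over the members was 0.33 against 0.02 over all tested probes. In MSC against BM it was 34 of 39 (51.1% of all tested probes), with a median of 0.35 against 0.01. In HSC against BM it was 23 of 39 (50.8%), with a median of 0.05 against 0.01. The counts depended on the scaling. Under median scaling 23 of 39 lay above 0 in MSC against HSC, with a median of 0.09 against -0.06 over all tested probes. In MSC against BM it was then 33 of 39, with 0.19 against -0.06. The members are brighter than most probes of the array, and the comparison with all tested probes was not matched for brightness. Both contrasts with MSC share the MSC arrays, and the subunits are measured on the same arrays, so these counts are descriptions of 6 arrays and carry no p.

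**Figure D1:**
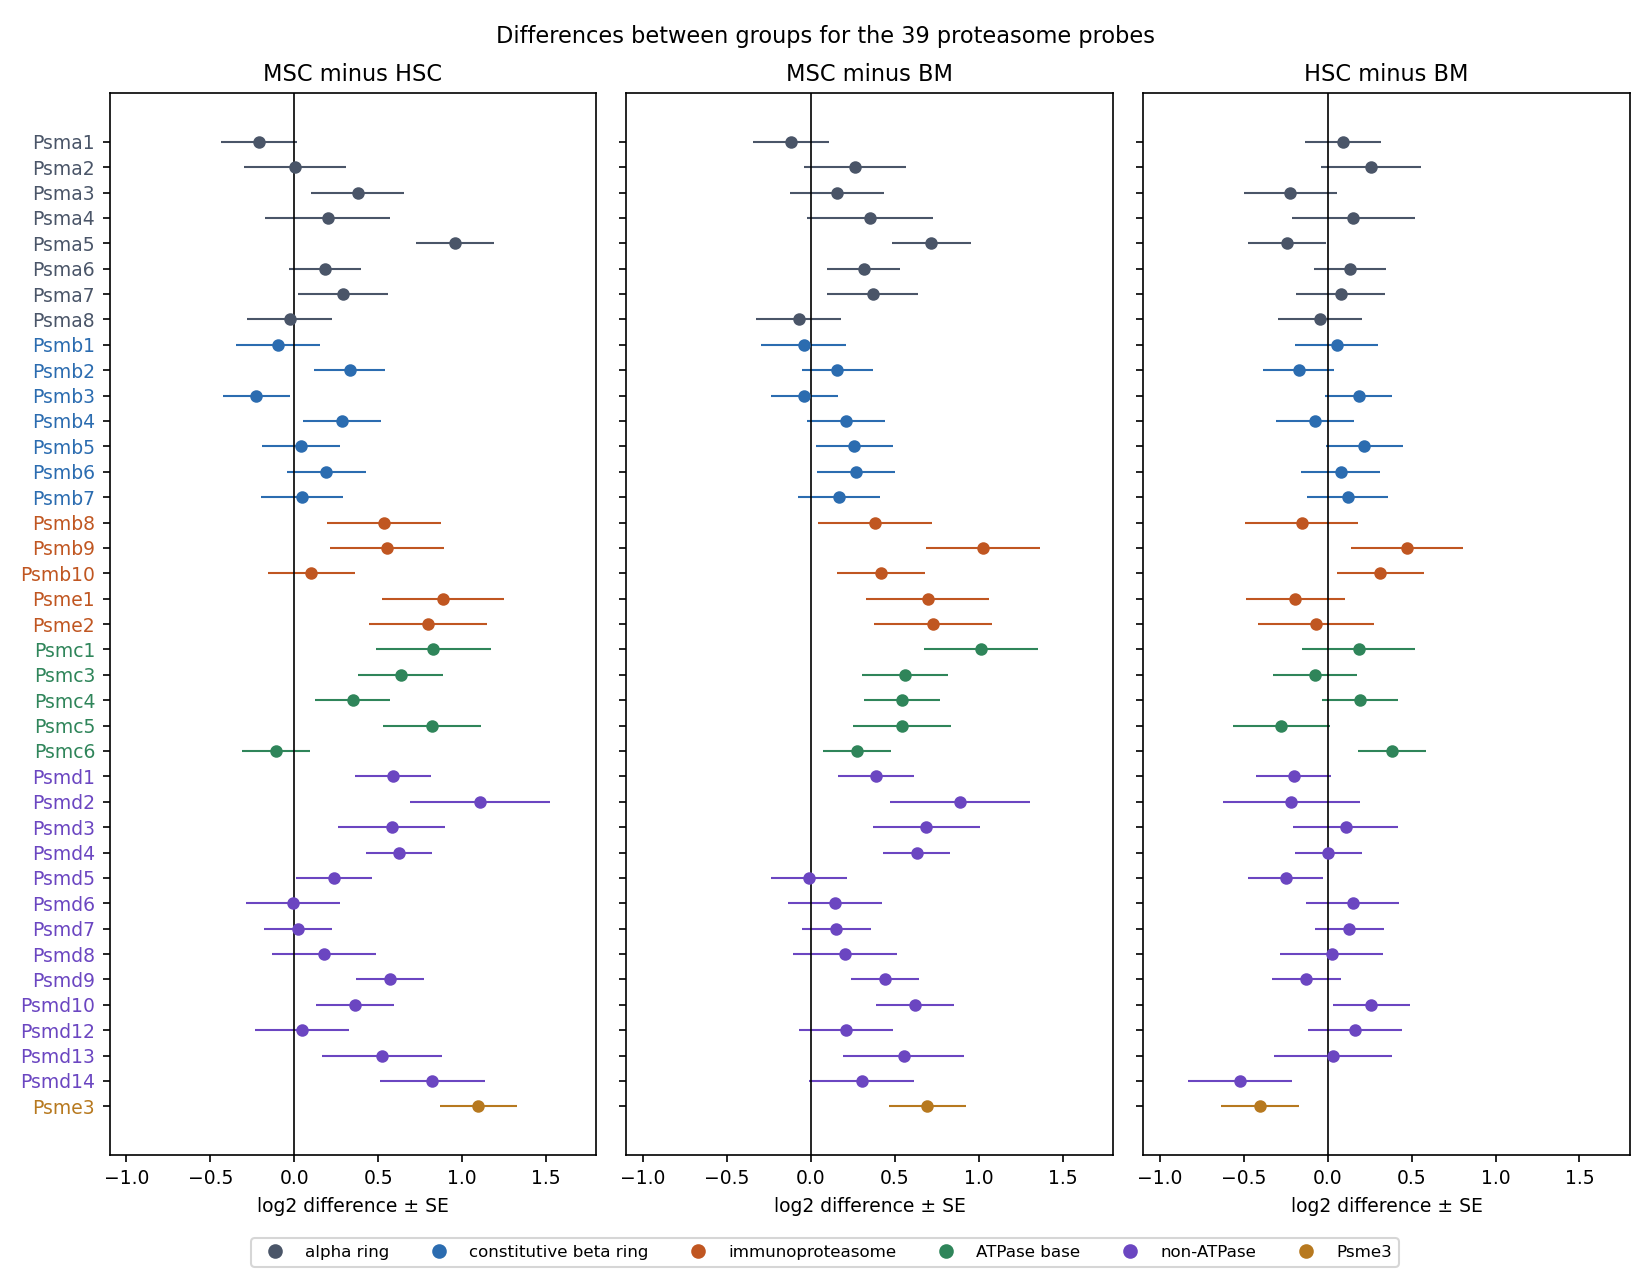
Mean log2 difference (horizontal axis, with limma's SE) of each of the 39 proteasome probes for MSC minus HSC, MSC minus BM and HSC minus BM, coloured by class of subunit. In the MSC panels 33 and 34 of 39 points lie to the right of 0, although under median scaling 23 and 33 of 39 do and the alpha and constitutive beta ring medians of the first panel lie below 0.

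The classes of subunits differed in how far they lay from 0. In MSC against HSC the median log2 difference was 0.64 for the 5 ATPases of the base, 0.55 for the immunoproteasome, 0.52 for the 13 non-ATPase probes, 0.19 for the 8 alpha probes and 0.05 for the 7 constitutive beta probes. When each array was scaled to its median instead of by quantiles, these medians were 0.37, 0.32, 0.24, -0.04 and -0.21, so that the alpha ring and the constitutive beta ring changed sign while the median over all tested probes stood at -0.06. In MSC against BM the medians were 0.54, 0.70, 0.39, 0.29 and 0.17, and all 5 stayed above 0 under median scaling (0.40, 0.46, 0.30, 0.16 and 0.08). With all arrays, the ATPases, the non-ATPase probes and the immunoproteasome thus stood above the core rings in both contrasts. This order was not kept with every array left out. Without MSC replicate 1 the alpha ring stood at 0.46 from BM and the non-ATPase probes at 0.42. Without HSC replicate 1 these classes were at 0.49 and 0.50 from HSC. The difference between classes was not tested.

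Both MSC arrays lay above both HSC arrays for 18 of 38 probes measured on all arrays, where 24.8% of all probes so measured did, and below for 3 of 38 (26.5%). The 18 were spread unevenly over the classes: 4 of 5 ATPases, 9 of 13 non-ATPase probes, 2 of 4 immunoproteasome probes and Psme3, but 1 of 8 alpha probes and 1 of 7 constitutive beta probes. The 3 that lay below were Psma1, Psmb3 and Psmc6. Against BM, both MSC arrays were above both control arrays for 21 of 38 (20.5%) and below for 0 of 38 (21.9%), with 5 of 5 ATPases, 8 of 13 non-ATPase probes, 3 of 4 immunoproteasome probes, 3 of 8 alpha probes and 1 of 7 constitutive beta probes. In HSC against BM, 3 of 39 lay above (Psmb3, Psmb10 and Psmc6, 20.4%) and 3 of 39 below (Psma5, Psmd9 and Psme3, 16.2%).

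Single arrays weighed on these counts. MSC replicate 2 held the highest value of 22 of the 38 probes and MSC replicate 1 of 4, whereas HSC replicate 2 held the lowest value of 14. MSC replicate 1 alone lay above both HSC arrays for 19 of 38 probes (38.7% of all tested probes) and MSC replicate 2 alone for 28 of 39 (37.3%). Against BM it was 22 of 38 (35.3%) and 33 of 39 (34%). By class, MSC replicate 1 alone was above both HSC arrays for 4 of 5 ATPases and 10 of 13 non-ATPase probes, and for 1 of 8 alpha and 1 of 7 constitutive beta probes. Most ATPase and non-ATPase probes therefore stood high on each MSC array taken alone, and the core rings mostly on MSC replicate 2.

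**Figure D2:**
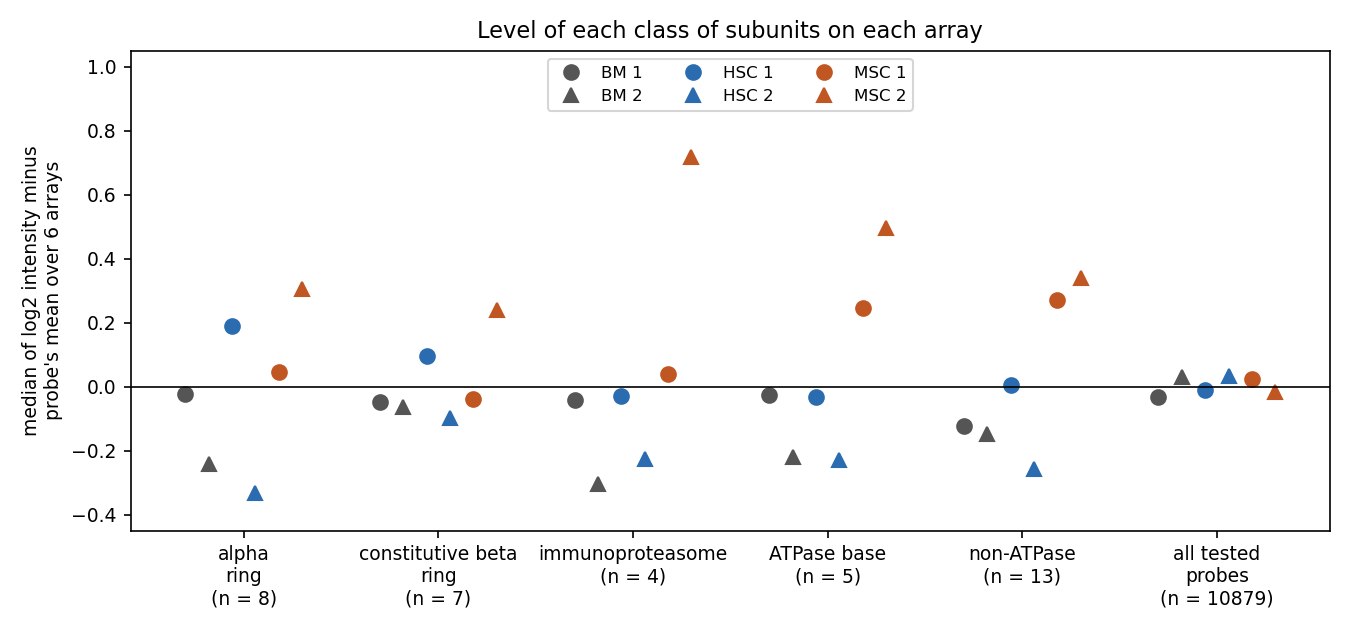
Median over the probes of each class of the log2 intensity minus the probe's mean over the 6 arrays (vertical axis), for each array, using probes measured on all arrays. For the ATPase base MSC stands at 0.25 and 0.50 and for the non-ATPase probes at 0.27 and 0.34, above the other 4 arrays, while for the immunoproteasome the 2 MSC arrays are apart at 0.04 and 0.72, and all tested probes stay near 0.

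Among the immunoproteasome catalytic subunits, Psmb9 (the replacement for Psmb6) read 12.17 and 11.16 in BM, 12.14 and 12.13 in HSC, and 12.57 and 12.81 in MSC. Both MSC arrays lay above the other 4 arrays, and BM replicate 2 was lowest by far. The log2 difference of MSC was 0.55 ± 0.34 (SE) from HSC (adjusted p = 0.445 in limma) and 1.02 ± 0.34 from BM (adjusted p = 0.311), and the latter was 0.52 without BM replicate 2. Psmb8 (the replacement for Psmb5) read 12.91 and 12.80 in BM, 12.89 and 12.51 in HSC, and 12.75 and 13.72 in MSC. MSC replicate 2 alone was high, and MSC replicate 1 lay among the control arrays. The difference of Psmb8 from HSC, 0.54 ± 0.34, became 0.05 without MSC replicate 2, and its difference from BM, 0.38 ± 0.34, became -0.10. Psmb10 (the replacement for Psmb7) read 12.05 and 12.07 in BM, 12.16 and 12.59 in HSC, and 12.22 and 12.73 in MSC. HSC and MSC overlapped for Psmb10 and both lay above BM, with differences from BM of 0.31 ± 0.26 in HSC and 0.42 ± 0.26 in MSC, and 0.10 ± 0.26 between MSC and HSC, which was -0.14 under median scaling.

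The activator genes Psme1 and Psme2 encode partner subunits of one ring-shaped cap. Psme2 read 12.00 and 11.70 in BM, 12.18 and 11.39 in HSC, and 12.23 and 12.92 in MSC. MSC lay above the other arrays without overlap, narrowly for replicate 1, with a difference of 0.80 ± 0.35 from HSC (adjusted p = 0.313 in limma) and 0.73 ± 0.35 from BM (adjusted p = 0.462). The former was 0.40 without HSC replicate 2 and the latter 0.38 without MSC replicate 2. Psme1 read 13.62 and 13.24 in BM, 13.55 and 12.92 in HSC, and 14.12 on the single usable MSC array. That array, MSC replicate 2, was the highest, and the differences of 0.89 ± 0.36 from HSC and 0.70 ± 0.37 from BM rest on it, the former being 0.57 without HSC replicate 2. The third activator, Psme3, forms a nuclear cap of its own and is not counted with the immunoproteasome. Psme3 read 12.45 and 12.06 in BM, 11.79 and 11.92 in HSC, and 13.09 and 12.81 in MSC. MSC lay above BM and BM above HSC with no overlap, and the MSC to HSC difference of 1.10 ± 0.23, a 2.14-fold ratio, had the lowest p of all members (unadjusted 0.00221, adjusted 0.115 in limma). It held between 0.96 and 1.24 when any 1 of the 4 arrays was left out. Against BM the Psme3 difference was 0.69 ± 0.23 (adjusted p = 0.311).

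**Figure D3:**
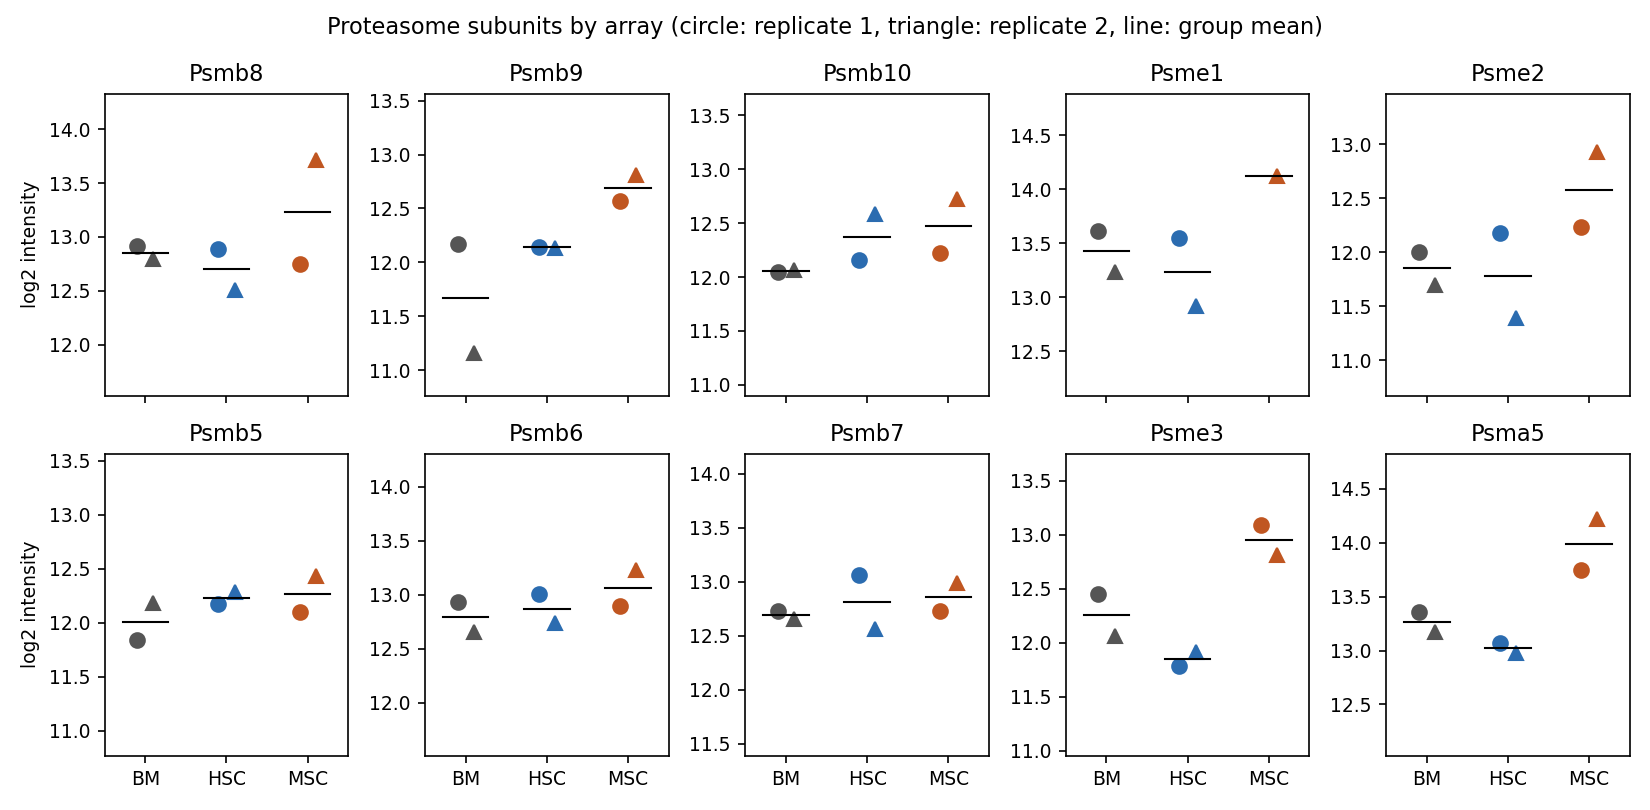
Log2 intensity (vertical axis, each panel spanning the same height around its own mean) of the immunoproteasome genes Psmb8, Psmb9, Psmb10, Psme1 and Psme2, the constitutive subunits Psmb5, Psmb6 and Psmb7, and Psme3 and Psma5, for every array. Psmb9, Psme2, Psme3 and Psma5 have both MSC arrays above the other 4, narrowly for Psme2, and Psmb8 is high in MSC replicate 2 only, at 13.72.

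The constitutive partners had small differences beside their errors. Psmb5, the subunit with chymotrypsin-like activity, read 11.84 and 12.18 in BM, 12.17 and 12.28 in HSC, and 12.10 and 12.43 in MSC. Psmb6, with caspase-like activity, read 12.94 and 12.65 in BM, 13.01 and 12.73 in HSC, and 12.90 and 13.23 in MSC. Psmb7, with trypsin-like activity, read 12.73 and 12.66 in BM, 13.07 and 12.56 in HSC, and 12.73 and 12.99 in MSC. The groups overlapped in every contrast of these 3 genes. The MSC to HSC differences were 0.04 ± 0.23 for Psmb5 (95% interval -0.51 to 0.59), 0.19 ± 0.23 for Psmb6 (-0.36 to 0.75) and 0.05 ± 0.24 for Psmb7 (-0.53 to 0.63). Under median scaling all 3 of these differences were below 0.

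Within each array, the log2 intensity of the immunoproteasome subunit minus that of its constitutive partner was followed, since a factor common to a whole array cancels in it. Quantile normalization is no such factor, and under median scaling the MSC to HSC shift of Psmb10 minus Psmb7, for example, was 0.087 in place of 0.055. Psmb9 minus Psmb6 was -0.76 and -1.49 in BM, -0.86 and -0.60 in HSC, and -0.33 and -0.41 in MSC. Both MSC arrays were highest, and the mean shift of MSC was 0.36 from HSC and 0.76 from BM, where the SD between replicates was 0.32. Psmb8 minus Psmb5 was 1.08 and 0.61 in BM, 0.72 and 0.22 in HSC, and 0.65 and 1.29 in MSC, so the groups overlapped and the MSC shifts of 0.50 and 0.12 compare with an SD of 0.38. With an array left out they ranged from 0.18 to 0.81 and from -0.20 to 0.44. Psmb10 minus Psmb7 was -0.68 and -0.59 in BM, -0.91 and 0.02 in HSC, and -0.51 and -0.26 in MSC. HSC spanned the other groups there, and the MSC shifts of 0.06 and 0.25 lay within the SD of 0.40. With 2 arrays per group an exact permutation test cannot go below a two-sided p of 0.333, so none was run.

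**Figure D4:**
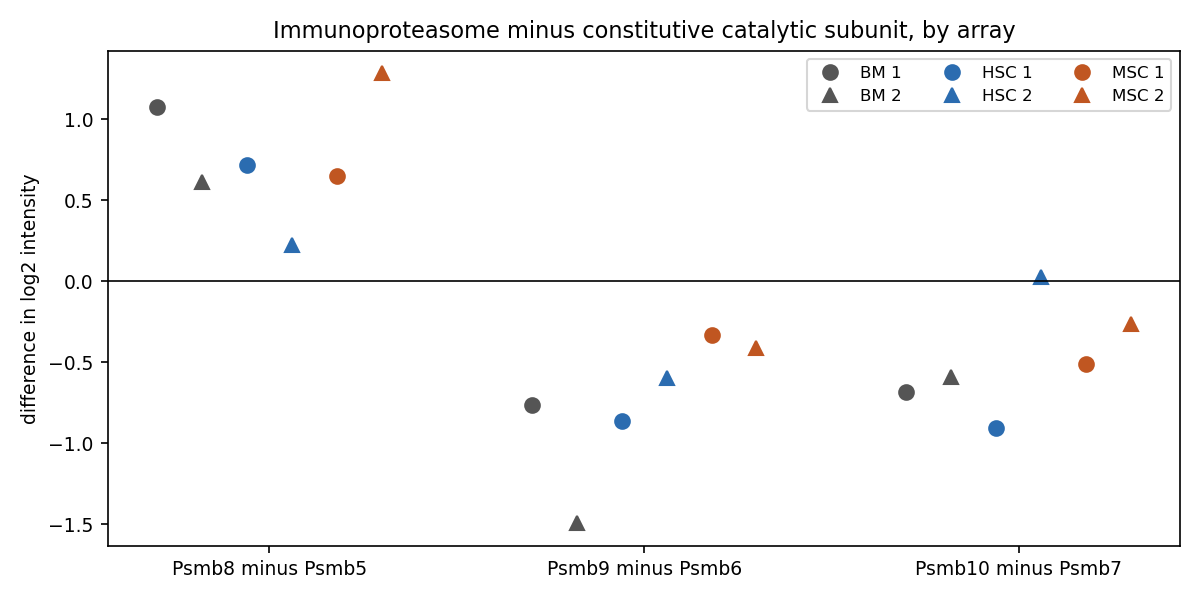
Difference in log2 intensity (vertical axis) between each immunoproteasome catalytic subunit and its constitutive partner, for each array; only the spread between arrays of one pair can be read, since its level depends on the probes. For Psmb9 minus Psmb6 both MSC arrays are highest, at -0.33 and -0.41.

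Promoter windows from RefSeq (build GRCm38.p6, 250 bases before to 50 after the start of each gene) were found for 32 of the 39 genes. They are shown for the immunoproteasome genes, which are known for induction by interferon gamma, and for Psmd4, a ubiquitin receptor. Psmd4 was chosen after its values were seen. Its MSC arrays both lay apart from the other 4, but so did those of other members whose windows are not shown, such as Psma5, Psme3 and Psmc1. The GAS element, known from interferon gamma responses, was searched as TTCNNNGAA, and the core of the interferon-stimulated response element (ISRE) as GAAA, any 2 bases and GAAA again, on both strands. Capitals mark these matches in the windows of Psmb8 (chr17:34197945-34198244, plus strand), Psmb9 (chr17:34187281-34187580, minus strand), Psmb10 (chr8:105938343-105938642, minus strand), Psme1 (chr14:55578244-55578543, plus strand), Psme2 (chr14:55591052-55591351, minus strand) and Psmd4 (chr3:95042565-95042864, minus strand), each read 5′ to 3′ on the strand of the gene.
Psmb8: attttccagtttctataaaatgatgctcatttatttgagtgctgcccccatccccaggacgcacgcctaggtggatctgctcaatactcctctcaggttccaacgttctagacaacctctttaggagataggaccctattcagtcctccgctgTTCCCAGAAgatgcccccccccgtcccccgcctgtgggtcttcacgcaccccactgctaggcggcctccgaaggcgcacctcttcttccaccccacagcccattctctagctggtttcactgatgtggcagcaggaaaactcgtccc
Psmb9: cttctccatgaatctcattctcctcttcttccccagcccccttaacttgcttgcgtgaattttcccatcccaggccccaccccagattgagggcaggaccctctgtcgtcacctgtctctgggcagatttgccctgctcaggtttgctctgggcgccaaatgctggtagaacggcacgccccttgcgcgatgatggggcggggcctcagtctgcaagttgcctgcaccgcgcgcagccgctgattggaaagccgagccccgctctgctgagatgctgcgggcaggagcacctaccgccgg
Psmb10: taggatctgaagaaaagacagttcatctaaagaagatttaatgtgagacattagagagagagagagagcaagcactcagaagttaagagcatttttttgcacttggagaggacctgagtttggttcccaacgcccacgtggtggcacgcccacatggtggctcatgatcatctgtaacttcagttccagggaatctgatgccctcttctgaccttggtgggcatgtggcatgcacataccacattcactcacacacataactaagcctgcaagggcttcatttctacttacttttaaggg
Psme1: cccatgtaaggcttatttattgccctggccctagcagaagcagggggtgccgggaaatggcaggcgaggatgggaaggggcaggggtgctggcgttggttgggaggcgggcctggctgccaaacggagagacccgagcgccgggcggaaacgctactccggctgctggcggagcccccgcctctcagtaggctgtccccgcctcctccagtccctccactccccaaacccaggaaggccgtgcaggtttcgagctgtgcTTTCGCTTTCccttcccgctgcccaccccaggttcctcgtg
Psme2: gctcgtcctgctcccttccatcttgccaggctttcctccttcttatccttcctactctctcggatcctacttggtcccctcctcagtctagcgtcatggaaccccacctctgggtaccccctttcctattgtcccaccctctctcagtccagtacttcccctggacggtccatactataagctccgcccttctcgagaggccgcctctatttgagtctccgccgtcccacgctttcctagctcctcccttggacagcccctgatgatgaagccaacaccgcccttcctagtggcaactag
Psmd4: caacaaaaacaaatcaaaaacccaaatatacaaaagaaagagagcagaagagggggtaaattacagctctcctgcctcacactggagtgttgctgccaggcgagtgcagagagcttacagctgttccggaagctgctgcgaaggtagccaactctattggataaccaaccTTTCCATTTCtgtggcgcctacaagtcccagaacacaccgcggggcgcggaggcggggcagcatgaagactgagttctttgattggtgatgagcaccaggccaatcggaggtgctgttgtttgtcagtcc

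The Psmb8 window held 1 GAS match, TTCCCAGAA, beginning at base -97 from the start, and the Psme1 window held 1 ISRE core on the opposite strand, TTTCGCTTTC, beginning at base 10 after the start. The Psmd4 window held 1 ISRE core on the opposite strand, TTTCCATTTC, beginning at base -80. No match to either motif lay in the windows shown for Psmb9, Psmb10 and Psme2. A GAS match was present in 1 of 5 immunoproteasome genes, 1 of the 27 other members with a window (Psmd2) and 9.55% of all 27025 genes with a window. An ISRE core was present in 1 of 5, in 3 of 27 (Psmb3, Psmd4 and Psmd9) and in 3.99% of all genes. The core of the antioxidant response element, TGACNNNGC, through which NRF factors act, was present in 0 of 5, in 5 of 27 (Psmb5, Psmb6, Psmc6, Psmd9 and Psmd12) and in 14% of all genes, and the CCAAT box, CCAAT, in 1 of 5, 11 of 27 and 41.1%. The windows of Psmb9 and of Tap1, a subunit of the MHC class I peptide transporter, face away from each other on chromosome 17 and share 275 of their 300 bases. Tap1 read 9.66 and 7.06 in BM, 9.28 and 8.53 in HSC, and 9.45 and 9.95 in MSC. Tap1 was not above background in BM replicate 2, on which its difference from BM partly rests. BM replicate 2 was the lowest array for both genes and MSC replicate 2 the highest, and the Tap1 differences of 0.79 ± 0.77 from HSC and 1.34 ± 0.77 from BM did not pass the test (adjusted p = 0.631 and 0.538 in limma).

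In the regulatory particle, Psmd4 encodes a receptor for ubiquitin chains. Psmd4 read 12.72 and 12.84 in BM, 12.70 and 12.87 in HSC, and 13.43 and 13.39 in MSC. Both MSC arrays lay apart from the other 4, which were all within a narrow band, and the differences were 0.63 ± 0.20 from HSC (adjusted p = 0.198 in limma) and 0.63 ± 0.20 from BM (adjusted p = 0.297), between 0.54 and 0.72 with any array left out of the first. Psmd2, a large scaffold of the base, had the largest MSC to HSC difference of any member. Psmd2 read 11.24 and 10.18 in BM, 10.93 and 10.06 in HSC, and 11.55 and 11.65 in MSC. MSC was again above the rest, but replicate 2 of both other groups was low, and the difference of 1.11 ± 0.42 became 0.67 without HSC replicate 2. Against BM it was 0.89 ± 0.42, or 0.36 without BM replicate 2. Psmd14, the deubiquitinase that removes the ubiquitin chain, read 12.56 and 11.91 in BM, 12.03 and 11.40 in HSC, and 12.44 and 12.64 in MSC. It separated MSC from HSC (0.82 ± 0.31, or 0.51 without HSC replicate 2) but not from BM (0.30 ± 0.31), and it had the largest HSC to BM difference of any member in absolute size, -0.52 ± 0.31 with overlapping arrays. Psmd3, a lid subunit, read 12.30 and 12.81 in BM, 12.30 and 13.03 in HSC, and 13.40 and 13.08 in MSC, with MSC narrowly above (0.58 ± 0.32 from HSC, or 0.21 without HSC replicate 1).

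Psmd5, Psmd9 and Psmd10 are named as subunits but act as chaperones that help to assemble the base. Psmd9 read 10.49 and 10.52 in BM, 10.31 and 10.45 in HSC, and 11.07 and 10.82 in MSC, and Psmd10 read 11.26 and 11.05 in BM, 11.64 and 11.19 in HSC, and 11.73 and 11.82 in MSC. MSC was above all other arrays for both, with differences from HSC of 0.57 ± 0.20 and 0.36 ± 0.23 and from BM of 0.44 ± 0.20 and 0.62 ± 0.23. The Psmd10 difference from HSC was 0.14 without HSC replicate 2. Psmd5 differed by -0.01 ± 0.23 between MSC and BM, with overlapping arrays.

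The ATPases form the ring that unfolds the substrate. Psmc1 read 10.98 and 10.00 in BM, 10.69 and 10.66 in HSC, and 11.32 and 11.68 in MSC. MSC lay above all others and BM replicate 2 was low, and the difference of 0.83 ± 0.34 from HSC (adjusted p = 0.286 in limma) stood beside 1.01 ± 0.34 from BM (adjusted p = 0.312), which was 0.52 without BM replicate 2. Psmc5 read 10.74 and 10.48 in BM, 10.67 and 10.00 in HSC, and 10.95 and 11.36 in MSC. Psmc3 read 12.62 and 12.35 in BM, 12.68 and 12.14 in HSC, and 12.94 and 13.14 in MSC. MSC was above both other groups for each, by 0.82 ± 0.29 and 0.64 ± 0.25 from HSC and by 0.54 ± 0.29 and 0.56 ± 0.26 from BM, with HSC replicate 2 lowest for both. Without that array the differences from HSC were 0.49 for Psmc5 and 0.37 for Psmc3, and that of Psmc5 from BM was 0.34 without MSC replicate 2. Psmc4 lay in the same direction (0.35 ± 0.22, or 0.18 without HSC replicate 1, and 0.54 ± 0.22). Psmc6 was the exception, at 12.12 and 12.37 in BM, 12.66 and 12.59 in HSC, and 12.58 and 12.46 in MSC. HSC was highest and BM lowest for Psmc6 with no overlap, which gave -0.11 ± 0.20 for MSC against HSC and 0.38 ± 0.20 for HSC against BM.

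In the alpha ring, which forms the gate of the core, Psma5 stood alone. Psma5 read 13.36 and 13.17 in BM, 13.07 and 12.98 in HSC, and 13.75 and 14.22 in MSC. The groups did not overlap in any contrast, and the differences were 0.96 ± 0.23 from HSC (adjusted p = 0.136 in limma), 0.72 ± 0.23 from BM (adjusted p = 0.308) and -0.24 ± 0.23 for HSC against BM. The next largest alpha differences were 0.38 ± 0.28 for Psma3 from HSC and 0.37 ± 0.27 for Psma7 from BM, the former with overlapping groups. They were 0.08 without MSC replicate 2 and 0.20 without BM replicate 2. Psma2 and Psma8 had differences from HSC of 0.01 ± 0.30 and -0.03 ± 0.25, the former -0.29 under median scaling. Psma1 was lower in MSC than in HSC without overlap, by -0.21 ± 0.22. In the beta ring, Psmb3 was the clearest in that direction, at 13.85 and 13.82 in BM, 14.03 and 14.02 in HSC, and 13.91 and 13.68 in MSC. Its difference of -0.23 ± 0.20 was about as large as its error. Psmb2 was above HSC by 0.33 ± 0.21 without overlap.

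The spread between replicate pools sets the scale of all these values. The median absolute difference between the 2 arrays of a group was 0.27 over the members in BM, 0.39 in HSC and 0.26 in MSC, compared with 0.28, 0.26 and 0.26 over all tested probes. The members moved together within a group: 26 of 39 were higher in BM replicate 1, 27 of 39 in HSC replicate 1 and 29 of 38 in MSC replicate 2, whereas 39.8% and 44.5% of all tested probes were higher in replicate 1 of BM and HSC and 56% in replicate 1 of MSC. The largest such gaps were 1.06 for Psmd2 in BM, 0.89 for Psma4 in HSC and 0.97 for Psmb8 in MSC. The steadiest member over the 6 arrays was Psmd7, a lid subunit, with a range of 0.32, and the most variable was Psmc1, with 1.69.

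Factors around the proteasome were taken from a list of 20 genes for its assembly, shuttling and regulation, of which 16 had a probe and 14 probes were tested. None was called in any comparison by limma, with 5 of 14 probes of MSC against HSC (4 higher and 1 lower), 3 of 14 of MSC against BM (all higher) and 0 of 14 of HSC against BM at an unadjusted p of 0.05, where 16.9%, 12.4% and 5.37% of all tested probes were. The list medians were 0.37, 0.30 and -0.13. Adrm1, a ubiquitin receptor of the base, differed by 1.23 ± 0.54 from HSC (adjusted p = 0.316 in limma). Psmf1, an inhibitor of the core, had 2 probes with differences of 1.00 ± 0.25 and 0.87 ± 0.47. The 1 lower probe of MSC against HSC was Sem1, whose symbol is outside the rule for members. Sem1 read 14.78 and 14.80 in BM, 15.02 and 15.02 in HSC, and 14.63 and 14.46 in MSC. MSC lay below both other groups without overlap, by -0.48 ± 0.19 from HSC and -0.24 ± 0.20 from BM.

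Of 19 ubiquitin genes and enzymes, 16 had a probe. In MSC against HSC 0 of 16 rose and 2 fell in limma, where 0.0772% of all tested probes rose and 0.403% fell. In MSC against BM 0 rose and 1 fell (0.152% and 0.278%). At an unadjusted p of 0.05 in limma, 1 was higher and 3 lower in MSC against HSC (16.9% of all tested probes in either direction). The same counts were 1 and 2 in MSC against BM (12.4%) and 2 and 0 in HSC against BM (5.37%). Uchl1, a deubiquitinase known from neurons, read 9.18 and 9.55 in BM, 10.18 and 10.29 in HSC, and 7.06 and 7.13 in MSC. It was not above background on either MSC array and was at least 7.34-fold lower than in HSC (adjusted p = 0.00575 in limma) and at least 4.01-fold lower than in BM (adjusted p = 0.0139). Fbxl12, the substrate receptor of a ubiquitin ligase, read 10.36 and 10.54 in BM, 10.94 and 11.27 in HSC, and 9.13 and 9.32 in MSC, and was lower than in HSC by a log2 difference of -1.88 ± 0.22 (adjusted p = 0.0283). The paper already lists both genes as lower in MSC than in HSC on these arrays, and the gene list was chosen with earlier results of these data known. Their fall is therefore no independent result to set beside the proteasome subunits. Uba1, the enzyme that activates ubiquitin, differed from HSC by 1.91 ± 1.12, a size between those of Uchl1 and Fbxl12 but with a large error and not called (adjusted p = 0.426 in limma).

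Of 17 genes of MHC class I processing and presentation, 14 had a probe and 0 were called in any comparison by limma, with 3 of 15 probes (1 higher), 3 of 15 (2 higher) and 1 of 14 (higher) at an unadjusted p of 0.05 in MSC against HSC, MSC against BM and HSC against BM, beside 16.9%, 12.4% and 5.37% of all tested probes. H2-Q10, a secreted class I molecule, differed by -1.20 ± 0.30 from HSC and -1.49 ± 0.24 from BM. Tapbp, which helps to load peptide onto class I, was not above background in BM or HSC and was at least 1.56-fold higher in MSC than in BM (adjusted p = 0.308 in limma). The spot of H2-Q10 in HSC replicate 2 was left out. B2m, the light chain of class I, differed by 0.14 ± 0.21 from HSC and 0.11 ± 0.21 from BM.

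Of 19 genes of interferon gamma signalling and of regulators of the immunoproteasome, 17 were tested with MSC. In MSC against HSC 0 rose and 1 fell in limma, where 0.0772% of all tested probes rose and 0.403% fell. In the other contrasts 0 were called, beside 0.43% of all tested probes in MSC against BM and 0.0359% in HSC against BM. At an unadjusted p of 0.05 in limma there were 2 of 17 probes in MSC against HSC (16.9% of all tested probes), 4 of 17 in MSC against BM (12.4%), 2 of them higher, and 1 of 14 in HSC against BM (5.37%). The one that fell was Il12a, a subunit of a cytokine that induces interferon gamma, at 11.29 and 11.39 in BM, 12.04 and 12.46 in HSC, and 9.68 and 8.44 in MSC (-3.19 ± 0.40, adjusted p = 0.0339). Gbp2, an interferon-induced GTPase, read 8.37 and 9.56 in MSC and 8.21 and 7.63 in HSC, and was not above background in BM. Ifng itself read 8.94 in MSC replicate 2 and 6.81 to 7.27 on the other 5 arrays, and it was not tested because no group had it above background on each of its arrays. MSC replicate 2 was thus the highest array for Ifng, Gbp2, Psmb8, Psmb9, Psmb10 and Psme2 and for the sum of T and NK cell markers. This was not particular to them. The same array was highest for 22 of the 38 proteasome probes measured on all arrays, with the constitutive Psmb5 and Psmb6 among them. It was also highest for the sums of stroma markers and of monocyte, macrophage and dendritic cell markers. The part of any of these cells in the immunoproteasome values was not tested.

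Without MSC replicate 2, the median difference of the immunoproteasome probes from HSC was 0.24 rather than 0.55, over 4 probes, and from BM 0.27 rather than 0.70, while that of the other subunits was 0.17 rather than 0.29 and 0.24 rather than 0.29. The ATPase base kept 0.54 and 0.40 and the non-ATPase probes 0.43 and 0.32 without that array. The constitutive beta ring was then at -0.08 from HSC. Leaving out HSC replicate 2 took the median of the other subunits from HSC to 0.12 and that of the non-ATPase probes to 0.17.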

How the data were processed

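RNA of 6 marrow pools was amplified, labelled and hybridized to CodeLink UniSet mouse bioarrays (the labelling protocol names the human kit, but the probes carry mouse records). The authors deposited scanner tables with spot and local background intensity for 20289 spots per array and a log2 value table; the software that made the latter is not given in the sources used here. Probes were named through RefSeq (GRCm38.p6) by sequence record (32 members) or gene number (7).

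Intensities were corrected in limma 3.58.1 (R 4.3.3; normexp, offset 50), quantile normalized and taken to log2. Contaminated or defective spots were left out. Testing required a signal over background on each array of 1 or both groups in the comparison. Each comparison was fitted over all 6 arrays (3 residual degrees of freedom), with Benjamini-Hochberg adjustment over all tested probes and a threshold of 0.05. "At least" folds set the dim group to the lowest signal above background of each array. The fits were tested on simulated data. The number of arrays limits the precision.

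Genes were named by rule: the immunoproteasome and its partners, the 2 largest differences of each class and comparison, discordant or dim members, and, of each list, called genes and the 3 largest differences. Some genes that this rule names are not reported here. Others named for their array pattern (among them Psmd4, Psmd5, Psmd7, Psmd9, Psma1, Psmb2, Sem1, Cd79a, Pax5, B2m and Ifng) were chosen after their values were seen. The members and lists were chosen with earlier results of these data known. Alternatives covered background, scaling, filters, variance model, a pool block, the methods' t-test and the omission of each array.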

Additional observations from a re-analysis of the deposited data

How the results depend on the processing

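None of the 39 proteasome probes passed the threshold under any limma alternative, and of 1066 values of named members under the alternatives 0 passed it and 39 had another sign than the value reported. The median difference of the other subunits moved to 0.055 in MSC against HSC and 0.15 in MSC against BM under median scaling. Across all probes, the counts called (56 in MSC against HSC, 51 in MSC against BM and 4 in HSC against BM) became 24, 24 and 0 with the deposited values and 17 and 23 for the first 2 with no filter. In MSC against BM they became 77 with median scaling and 28 with probes above background on all 6 arrays, and in HSC against BM 7 with median scaling and 0 with an offset of 16. With only the 4 arrays compared they were 22 in MSC against BM and 0 in HSC against BM. The methods' t-test gave 1226, 883 and 651 probes unadjusted, 4, 2 and 1 of them members, and 0, 0 and 0 adjusted.

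Leaving out each array in turn gave 28 to 88, 22 to 108 and 0 to 71 calls in the 3 comparisons. The immunoproteasome median ranged from 0.24 to 0.89 from HSC and from 0.27 to 0.88 from BM, and the median of the other subunits from 0.12 to 0.41 in MSC against HSC and from -0.094 to 0.19 in HSC against BM. The shift of Psmb9 minus Psmb6 from BM ranged from 0.39 to 1.12 in MSC and from 0.031 to 0.76 in HSC, and that of Psmb10 minus Psmb7 from -0.41 to 0.52 in MSC against HSC and from -0.27 to 0.66 in HSC against BM. With 1 array left, a group is assumed to vary like the others.

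The pool numbers are not stated to pair the arrays. Same-numbered arrays had deviations that correlated at 0.57 between BM and HSC, -0.28 between BM and MSC and -0.20 between HSC and MSC over 8848 probes, and the pool number as a replicate block gave 15, 22 and 0 calls. Crossing the MSC numbers, chosen after seeing the data, gave 232 and 105 calls in the contrasts with MSC. The cause of these movements was not tested.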
